A study of Mus musculus with 8 samples.

Results

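The keratin family was followed through a set of ovarian tumours from mice that carried or lacked Nedd9. Members were the array's gene rows named Krt followed by a number alone, which gave 48 genes of the 31699 on the array, measured by 62 probes. Of these, 25 were type I keratins, 22 were type II keratins, and Krt222 is a keratin-like gene. Each gene was represented by its brightest probe, and 12 genes had more than 1 probe. Keratins with a letter after the number, such as Krt6b, stood outside the choice.

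The tumours arose spontaneously in the ovaries of female C57BL/6J mice that carried the TgMISIIR-TAg transgene, in which the promoter of the Muellerian inhibiting substance type II receptor drives SV40 large T antigen. Both groups carried this transgene, so all 8 tumours arose in mice with T antigen under that promoter. The Nedd9-null group (4 mice) lacked Nedd9, a Cas-family adaptor found at focal adhesions, and the Nedd9-WT group (4 mice) had the gene. No drug was given. The labels differ on size, since the design text puts the tumour burden below 2000 mm3 while under the growth protocol mice were sacrificed only once that volume had been reached, and they give no age. Total RNA of 1 tumour per mouse, 500 ng each, was labelled with Cy3 and hybridised to 1-colour Agilent arrays.

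Keratins build the intermediate filaments of epithelial cells. A type I keratin, acidic, always pairs with a type II keratin, neutral or basic, and the partners expressed depend on the epithelium: Krt8 and Krt18 with Krt7 and Krt19 in simple, single-layered epithelia, Krt5 and Krt14 in the basal layer of stratified epithelia, Krt1 and Krt10 in the layers above, and a further set in hair and nail. The surface epithelium of the ovary, the oviduct and most epithelial ovarian tumours make simple keratins, whereas ovarian stroma makes mainly vimentin. In the mouse the type I genes lie together on chromosome 11 and the type II genes, with Krt18, on chromosome 15, and the array's members fell into 25 and 23 genes by the file's mm9 coordinates.

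The sequence before the start of a keratin gene is where its epithelial expression is in large part set, and 4 promoters are shown, those of the simple keratins Krt7, Krt8 and Krt18 and of the nail keratin Krt42, in all of which the same 3 Nedd9-null tumours were high. Each is the 250 bases upstream of the start in RefSeq's GRCm38.p6 table, 5′ to 3′ in the direction of transcription. Capitals mark GC boxes (GGGCGG) and AP-2 sites (GCCNNNGGC), searched on both strands.
Krt7 (chr15:101412153-101412402, plus strand): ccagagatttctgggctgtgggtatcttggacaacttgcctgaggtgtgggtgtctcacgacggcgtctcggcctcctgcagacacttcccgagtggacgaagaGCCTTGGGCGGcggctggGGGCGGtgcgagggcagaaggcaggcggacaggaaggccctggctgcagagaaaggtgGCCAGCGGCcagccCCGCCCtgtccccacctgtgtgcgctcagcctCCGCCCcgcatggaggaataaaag
Krt8 (chr15:102004343-102004592, minus strand): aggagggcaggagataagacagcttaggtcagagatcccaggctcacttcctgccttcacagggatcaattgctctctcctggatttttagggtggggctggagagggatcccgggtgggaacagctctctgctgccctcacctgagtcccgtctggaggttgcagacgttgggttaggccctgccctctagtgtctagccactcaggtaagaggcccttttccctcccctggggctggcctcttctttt
Krt18 (chr15:102027966-102028215, plus strand): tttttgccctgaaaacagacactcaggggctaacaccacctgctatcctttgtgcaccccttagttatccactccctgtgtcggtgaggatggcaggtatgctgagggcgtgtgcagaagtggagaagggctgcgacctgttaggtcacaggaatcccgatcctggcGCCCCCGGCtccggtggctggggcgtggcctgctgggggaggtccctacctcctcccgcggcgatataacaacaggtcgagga
Krt42 (chr11:100269952-100270201, minus strand): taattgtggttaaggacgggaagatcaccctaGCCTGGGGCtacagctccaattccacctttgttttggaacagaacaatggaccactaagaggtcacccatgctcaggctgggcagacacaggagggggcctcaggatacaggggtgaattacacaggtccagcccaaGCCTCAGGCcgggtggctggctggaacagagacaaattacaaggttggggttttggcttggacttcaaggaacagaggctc

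The Krt7 window held 4 GC boxes and 2 AP-2 sites, of which an AP-2 site and a GC box overlap. The Krt18 window held 1 AP-2 site, the Krt42 window held 2, and the Krt8 window held neither motif. Among windows not shown, those of Krt13 and Krt36, also high in the same Nedd9-null tumours, held neither motif. That of Krt9, which was not high there, held 1 AP-2 site. Krt15, Krt17, Krt19 and Krt81 had no window in the table. Promoter windows in the table covered 35 starts of the family. All motifs were searched on both strands and over the whole window. The letters of a TATA box (TATAAA) lay in 16 of the 35 keratin windows (45.7%), against 12.4% of the 32817 windows of all genes. In Krt72 and Krt84 the only match was on the opposite strand, 203 and 206 bases before the start. None of the 4 windows shown had a match. The other shares in keratin windows were 5.71% for GC boxes (32.7% of all windows), 5.71% for AP-1 sites (TGANTCA, 6.75% of all windows) and 11.4% for AP-2 sites (13.7%). The grainyhead site AACCNGGTT was in none of the keratin windows and in 0.241% of all. A match says only that these letters are present.

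Probes carry the measurement, and the probes of a pair of hair keratins read nearly the same sequence. Those of Krt81 and Krt83 are shown 5′ to 3′ with the 51 bases identical in both in capitals.
Krt81 (chr15:101290583-101290642 in mm9, minus strand): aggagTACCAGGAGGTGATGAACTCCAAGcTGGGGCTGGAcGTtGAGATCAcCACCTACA
Krt83 (chr15:101263556-101263615 in mm9, minus strand): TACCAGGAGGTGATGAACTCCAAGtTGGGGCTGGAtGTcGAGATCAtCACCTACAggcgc

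Over the aligned bases the Krt81 and Krt83 probes were identical at 51 of 55 (92.7%), with a shared run of 24 bases. The accession given for the Krt83 probe now belongs to Krt87 in RefSeq, so the values of both probes belong to the named genes only as far as the array's design goes. A different feature marks the Krt222 probe used here (chr11:99095480-99095539 in mm9), which holds a CA repeat of 22 bases, acacacacacacacacacacac, and shares runs of 18 to 23 bases with 28 probes of other genes.

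The array's Nedd9 probe checked the labels. It stood at -2.10, -3.61, -3.49 and -4.14 in the Nedd9-null tumours and 1.03, 0.72, 1.18 and 1.72 in the Nedd9-WT tumours, on the scale used throughout: log2 of the processed signal relative to the 75th percentile of the same array. The groups did not overlap, and the level was lower by 22.6-fold in Nedd9-null tumours (difference -4.50, SE 0.44, adjusted p = 0.0275 by limma, p = 0.0286 by an exact 2-sided permutation test, which is the lowest value possible with 70 arrangements of 8 arrays). Leaving out 1 array at a time gave -4.91 to -4.23, and the adjusted p stayed under 0.05 only without replicate 1 of either genotype. Nedd9-null replicate 1 stood apart from the other 3 Nedd9-null arrays. Its correlation over the 25529 genes tested was 0.938 to 0.973 with the Nedd9-WT arrays and 0.886 to 0.920 with the other Nedd9-null arrays. Results are therefore given with and without it, and the choice to show this array's omission was made with the earlier results known. Each genotype was hybridised on a slide of its own and scanned on its own, so slide and genotype cannot be told apart. In tumour RNA, fewer cells of a type and less RNA per cell cannot be told apart either.

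Of the 48 keratins, 39 were tested, because 3 or 4 arrays of 1 genotype or the other had the probe well above background. No member was saturated. Of the 39, 27 keratins were above background on all 8 arrays, 32 passed in both genotypes, and 7 (Krt4, Krt12, Krt24, Krt71, Krt76, Krt77 and Krt78) passed through the Nedd9-null group alone. With all 8 arrays, 0 of 39 keratins passed an adjusted p of 0.05 in limma, beside 0.0666% of the 25529 genes tested (17 genes). The smallest adjusted p of a keratin was 0.0920, for Krt81. At an unadjusted p under 0.05 there were 12 keratins of 39, or 8 of the 32 that passed in both genotypes, and 23.6% of all genes. Values of the genotypes did not overlap in 5 of 39 keratins (12.8%), beside 12.7% of all genes. These were Krt5, Krt23, Krt34 and Krt81, higher in Nedd9-null tumours, and Krt10, lower. The share without overlap was thus close to that of all genes. The count was 1 with arrays scaled on their median, with quantile normalization and in the deposited value table, 2 with normexp background correction, 9 without Nedd9-WT replicate 3 and 8 without Nedd9-WT replicate 4. The share of all genes was not counted in these settings, so the changes cannot be read as particular to keratins. Of the 17 genes called over the array, 15 were higher and 2 lower in Nedd9-null tumours, against 2 and 2 on the median scale, 3 and 1 after quantile normalization and 14 and 5 in the deposited value table.

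Differences below are Nedd9-null minus Nedd9-WT in log2 units. They were above 0 in 31 keratins and below 0 in 8, with a median of 0.54, where the median of all genes was 0.0451. In the 32 keratins that passed in both genotypes, 25 were above 0 and 7 below, with a median of 0.53. Scaling each array on its median instead lowered every difference by the same 0.21 (shift -0.21), to a keratin median of 0.34 beside -0.16 for all genes. The keratin median was 0.31 after quantile normalization, 0.23 with normexp and 0.15 in the deposited value table.

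Without Nedd9-null replicate 1, the same fit called 10 of 39 keratins (25.6%), beside 18.5% of all genes. Of these, 9 were higher in Nedd9-null tumours (10.4% of all genes were called higher) and 1 was lower (8.11% of all genes). The 9 were the simple keratins Krt7, Krt8 and Krt19, the stratified keratins Krt13, Krt15 and Krt17, and the hair and nail keratins Krt36, Krt42 and Krt81. The exception was Krt79. Genotypes then did not overlap in 15 of 39 keratins (38.5%), beside 34.1% of all genes. The median keratin difference was 0.57, and that of all genes was -0.0586. A fit that weighted arrays by their quality over all genes, with all 8 arrays, called 10 of 39 keratins (25.6%), near the 23.4% of all genes. All 10 were the genes called without Nedd9-null replicate 1. The weights were estimated from these same arrays, so that fit is not an independent check.

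**Figure D1:**
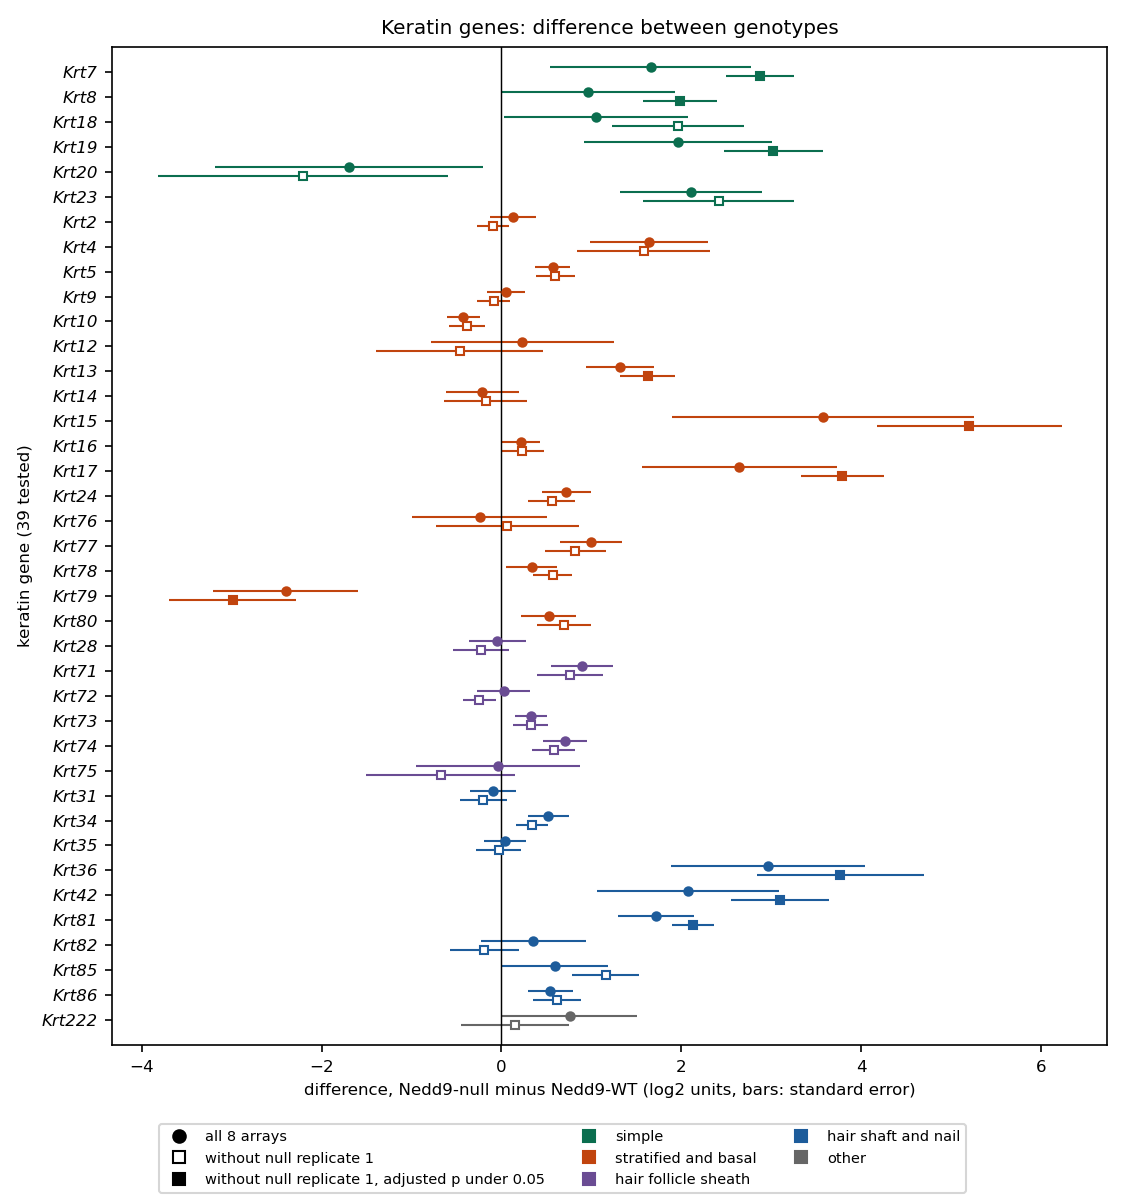
Difference between Nedd9-null and Nedd9-WT tumours for the 39 tested keratins in log2 units, with standard errors, from all 8 arrays (circles) and without Nedd9-null replicate 1 (squares, filled where the adjusted p was under 0.05), coloured by class. The 10 filled squares lie at 1.62 or higher, except Krt79 at -2.99.

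When Nedd9-null replicate 1 was left out, 3 of 6 simple keratins were called, all higher, where 10.4% of all genes were called higher. This was the highest share of calls among the classes, from only 6 genes, and the class median was 2.20. With all 8 arrays limma called none of the 6 (1 at an unadjusted p under 0.05), 5 were above 0 and the median was 1.35. Krt7, Krt8, Krt18 and Krt19 shared a pattern over the arrays. In each of them Nedd9-null replicate 1 was below every Nedd9-WT tumour. The mean level of 8 markers of ciliated oviduct cells was also high in Nedd9-null replicates 2 to 4 (2.34 to 3.03) and lower in replicate 1 (-1.60) and the Nedd9-WT tumours (-3.83 to -1.52), and its part in these results was not tested.

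Krt8, the type II keratin of simple epithelia, stood at 0.29, 4.72, 4.73 and 3.77 in the 4 Nedd9-null tumours and 2.33, 2.19, 3.32 and 1.82 in the 4 Nedd9-WT tumours. Replicates 2 to 4 of the Nedd9-null group were all above the Nedd9-WT range, and replicate 1 was below it, so that the groups overlapped. The difference was 0.96 (SE 0.97, adjusted p = 0.59) with all arrays and 1.99 (SE 0.41, adjusted p = 0.0168) without replicate 1, or 3.97-fold higher. A second Krt8 probe gave a difference of 0.97 with all arrays and 1.97 without replicate 1.

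Its filament partner Krt18 stood at 1.75, 5.76, 5.64 and 4.84 in the 4 Nedd9-null tumours and 1.95, 3.21, 5.30 and 3.34 in the 4 Nedd9-WT tumours. Nedd9-WT replicate 3 was above Nedd9-null replicate 4, so the groups also overlapped when replicate 1 was left out. The difference was 1.05 (SE 1.03, adjusted p = 0.576), and 1.96 (SE 0.73, adjusted p = 0.113) without replicate 1. Krt8 and Krt18 are neighbours in opposite orientation, and their probes lie within 35.3 kb on chromosome 15.

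Krt19, a type I keratin of ducts and of the ovarian surface, stood at -1.02, 3.21, 3.97 and 2.42 in the 4 Nedd9-null tumours and -0.0089, 1.26, 0.30 and -0.83 in the 4 Nedd9-WT tumours. The 3 high values were all in the Nedd9-null group. Its difference was 1.97 (SE 1.04, adjusted p = 0.295), and without replicate 1 it was 3.02 (SE 0.55, adjusted p = 0.0102), or 8.12-fold higher.

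Krt7, the type II keratin of glandular and ductal epithelium, stood at -4.03, 1.39, 1.10 and -5.2e-05 in the 4 Nedd9-null tumours and -1.68, -2.11, -2.54 and -1.83 in the 4 Nedd9-WT tumours, where the value of Nedd9-null replicate 4 is the array's 75th percentile itself. Nedd9-null replicate 1 was the lowest of all 8, and the other 3 Nedd9-null tumours were the highest. The difference of 1.66 (SE 1.11, adjusted p = 0.405) became 2.87 (SE 0.38, adjusted p = 0.0027) without that array, or 7.32-fold higher.

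Krt23 was the simple keratin whose genotypes did not overlap. This type I keratin stood at -6.00, -3.96, -4.01 and -6.33 in the 4 Nedd9-null tumours and -6.49, -6.50, -9.04 and -6.70 in the 4 Nedd9-WT tumours. Nedd9-null replicate 4, at -6.33, was close to the 3 upper Nedd9-WT values, and Nedd9-WT replicate 3, far below the rest, was not well above background. Neither fit called it: 2.11 (SE 0.79, adjusted p = 0.164) with all arrays and 2.42 (SE 0.84, adjusted p = 0.0938) without replicate 1. With normexp the difference was 0.87, and in the deposited value table it was 0.95. Krt20, a keratin of gut epithelium and urothelium, varied widely within both groups, at -3.14, -3.16, -7.69 and -4.73 in the 4 Nedd9-null tumours and -4.53, -0.19, -5.81 and -1.40 in the 4 Nedd9-WT tumours. It went the other way, -1.70 (SE 1.49, adjusted p = 0.531), with a difference within that spread.

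**Figure D2:**
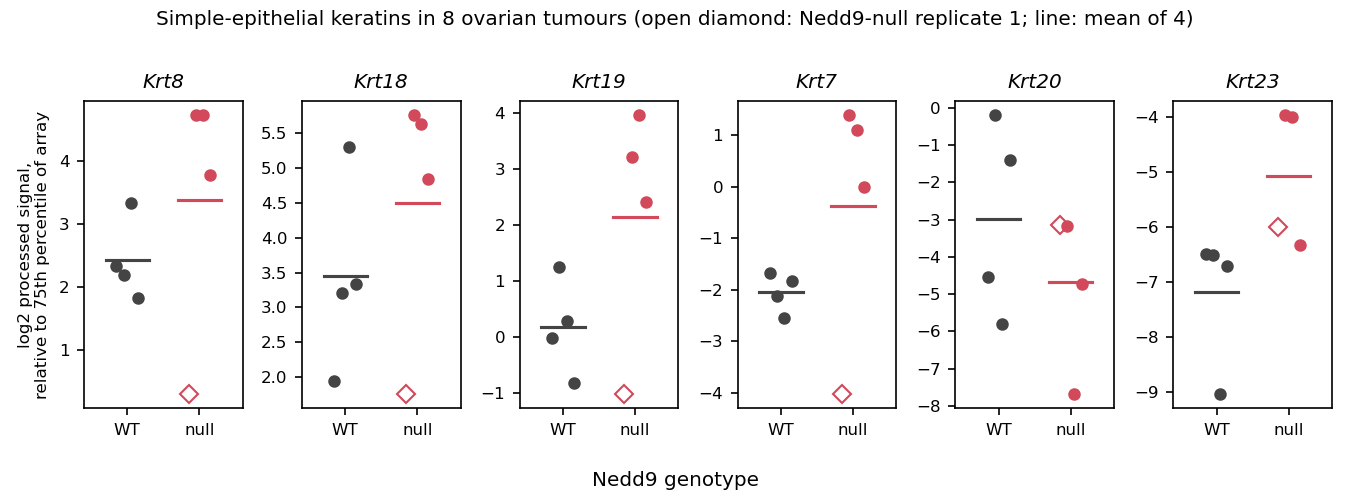
Levels of the 6 simple keratins on each array, in log2 processed signal relative to the array's 75th percentile, with the mean of each genotype as a line and its own vertical axis per gene. Nedd9-null replicate 1 (open diamond) lies below all Nedd9-WT tumours for Krt8, Krt18, Krt19 and Krt7, while the other 3 Nedd9-null tumours lie above all of them for Krt8, Krt19 and Krt7.

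Among 17 tested stratified and basal keratins, limma called no gene with all arrays (7 at an unadjusted p under 0.05), 13 differences were above 0 and 4 below, and the median was 0.33. Of the 17, 6 had passed through the Nedd9-null group alone. The 11 that passed in both genotypes had 8 differences above 0 and 3 below, a median of 0.21, and 4 genes at an unadjusted p under 0.05. Without Nedd9-null replicate 1, 3 of the 17 were called higher and 1 lower, all among those 11, beside 10.4% and 8.11% of all genes. The median was then 0.56 over the 17 and 0.23 over the 11. Neither keratin of the basal pair was called. Krt5, the type II partner of the basal layer, stood at -4.54, -4.19, -4.74 and -4.32 in the 4 Nedd9-null tumours and -4.86, -5.16, -5.28 and -4.76 in the 4 Nedd9-WT tumours. All Nedd9-null values were above all Nedd9-WT values by a small margin, with a difference of 0.57 (SE 0.19, adjusted p = 0.142), or 0.60 (SE 0.21, adjusted p = 0.0981) without replicate 1. It was smaller with normexp (0.34) and in the deposited value table (0.19). Krt14, its type I partner, stood at -3.85, -3.26, -3.91 and -3.96 in the 4 Nedd9-null tumours and -2.59, -4.44, -3.94 and -3.16 in the 4 Nedd9-WT tumours, and the groups lay over each other at -0.21 (SE 0.41, adjusted p = 0.788).

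Krt15, a type I keratin of basal cells and of the hair follicle bulge, gave the largest fitted difference of the family by the brightest probe. It stood at -7.51, -2.39, -0.64 and -0.014 in the 4 Nedd9-null tumours and -6.34, -5.09, -4.74 and -8.68 in the 4 Nedd9-WT tumours. Nedd9-null replicates 2 to 4 were above every Nedd9-WT tumour, while replicate 1 was below 3 of the 4. The lowest value of each group, in Nedd9-null replicate 1 and Nedd9-WT replicate 4, was not well above background. The difference was 3.58 (SE 1.68, adjusted p = 0.243), and 5.20 (SE 1.03, adjusted p = 0.0142) without replicate 1. With all arrays it was 2.64 with normexp and 2.63 in the deposited value table. With the mean of kept probes, the difference of Krt36 (4.00) was larger than that of Krt15 (3.58).

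Krt17, known for its induction in injured and proliferating epithelium, stood at -6.86, -1.66, -1.74 and -3.45 in the 4 Nedd9-null tumours and -5.80, -6.17, -6.51 and -5.82 in the 4 Nedd9-WT tumours. Again the 3 high values were Nedd9-null replicates 2 to 4, and replicate 1 was the lowest of all. The difference was 2.65 (SE 1.08, adjusted p = 0.191). Leaving out replicate 1 gave 3.79 (SE 0.46, adjusted p = 0.00212), or 13.8-fold higher.

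Krt13, the type I keratin of stratified mucosa, stood at -4.62, -3.38, -3.13 and -3.72 in the 4 Nedd9-null tumours and -5.36, -5.30, -4.30 and -5.17 in the 4 Nedd9-WT tumours. Here replicate 1 of the Nedd9-null group was on the side of its own group, above 3 of the 4 Nedd9-WT tumours. The difference was 1.32 (SE 0.38, adjusted p = 0.11), and 1.62 (SE 0.30, adjusted p = 0.0112) without replicate 1. In the deposited value table it was 0.82 with all arrays. The gene's second kept probe differed by 0.82 (SE 0.82) with all arrays and by 0.88 without replicate 1, and on it Nedd9-WT replicate 1, at -5.36, was above every Nedd9-null tumour. Krt4, the type II partner of Krt13, stood at -6.72, -5.31, -8.53 and -7.03 in the 4 Nedd9-null tumours and -8.43, -9.21, -7.72 and -8.79 in the 4 Nedd9-WT tumours. None of the Nedd9-WT arrays was well above background, nor was Nedd9-null replicate 3, which lay below Nedd9-WT replicates 1 and 3, so the groups overlapped. The fitted difference was 1.64 (SE 0.65, adjusted p = 0.183), and it was 0.38 with normexp and 0.45 in the deposited value table.

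Krt79, a type II keratin of the upper hair follicle and the ducts of sebaceous glands, went the opposite way. It stood at 1.66, -0.61, -0.32 and -1.16 in the 4 Nedd9-null tumours and 0.71, 3.90, 1.82 and 2.76 in the 4 Nedd9-WT tumours. Nedd9-null replicates 2 to 4 were below every Nedd9-WT tumour, and replicate 1 lay inside the Nedd9-WT range. The difference was -2.40 (SE 0.81, adjusted p = 0.139), and -2.99 (SE 0.71, adjusted p = 0.0278) without replicate 1, or 7.95-fold lower.

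Krt10, the type I keratin of the spinous layer, was slightly lower in all Nedd9-null tumours by its brightest probe alone. That probe stood at -1.61, -1.37, -1.31 and -1.67 in the 4 Nedd9-null tumours and -1.11, -0.70, -1.19 and -1.27 in the 4 Nedd9-WT tumours. These values did not overlap, and the difference was -0.42 (SE 0.18, adjusted p = 0.212). A second Krt10 probe differed by 0.63 in the other direction, and the mean of both probes gave 0.10, so the sign depended on the probe. Its partner Krt1 was above background on 1 of 8 arrays and was not tested.

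None of the remaining stratified keratins was called with either set of arrays. Krt80, a keratin of differentiating epithelium, differed by 0.52 (SE 0.31, adjusted p = 0.341). Krt16, the partner of the Krt6 proteins in stressed epithelium, differed by 0.21 (SE 0.22, adjusted p = 0.588). Krt77, a keratin of sweat gland ducts, differed by 1.00 (SE 0.34, adjusted p = 0.143) and Krt24 by 0.72 (SE 0.27, adjusted p = 0.169), both from probes close to background in the Nedd9-WT group. With normexp these were 0.13 each. Of Krt2 (0.13), Krt9 (0.050), Krt12 (0.23), Krt76 (-0.24) and Krt78 (0.33), none passed an unadjusted p of 0.05, and each changed sign under at least 2 of the alternatives.

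The 6 tested keratins of the hair follicle sheath, the layer that encloses the growing hair, included no limma call with either set of arrays (2 at an unadjusted p under 0.05 with all arrays). Their differences ran from -0.047 to 0.89 with a median of 0.17, and 0.023 over the 5 that passed in both genotypes. Krt74, a keratin of the inner root sheath, stood at -5.71, -6.03, -6.51 and -6.15 in the 4 Nedd9-null tumours and -6.92, -7.25, -6.44 and -6.63 in the 4 Nedd9-WT tumours. Each Nedd9-null value but 1 was above all Nedd9-WT values, at 0.71 (SE 0.24, adjusted p = 0.144), or 0.24 with normexp. Krt71 differed by 0.89 (SE 0.35, adjusted p = 0.174), with 1 of 4 Nedd9-WT tumours above background, and Krt73 by 0.33 (SE 0.18, adjusted p = 0.311). With normexp the difference of Krt71 was 0.14. The others were Krt28 (-0.047), Krt72 (0.023) and Krt75 (-0.037), and the sign of each turned under some alternatives. Nedd9-null replicate 1 was above all Nedd9-WT tumours in 5 of these 6 genes, unlike its place among the simple keratins. The 75th percentile signal, to which levels are scaled, was lowest on this array (2584, against 3113 to 3819 on the others). How far that raised dim probes was not tested, and the array's place over all genes was not counted.

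In the hair shaft and nail class 9 of 14 keratins were tested. With all arrays limma called none (2 at an unadjusted p under 0.05), 8 differences were above 0 and the median was 0.54. Without Nedd9-null replicate 1, 3 were called, all higher, beside 10.4% of all genes, and the median was 0.62.

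Krt81, a type II keratin of the hair cortex, had the smallest adjusted p of the family. It stood at -5.08, -3.05, -3.32 and -3.88 in the 4 Nedd9-null tumours and -5.38, -5.61, -5.80 and -5.40 in the 4 Nedd9-WT tumours. No values overlapped, and replicate 1 was the lowest of the Nedd9-null group. The difference was 1.71 (SE 0.42, adjusted p = 0.092), and 2.13 (SE 0.24, adjusted p = 0.00147) without replicate 1, or 4.37-fold higher. In the deposited value table the difference with all arrays was 1.07. Krt83, whose probe nearly matches that of Krt81, was above background on 2 Nedd9-null arrays and 1 Nedd9-WT array and was not tested. Its values were -7.16, -7.83, -7.69 and -7.19 in the 4 Nedd9-null tumours and -8.94, -9.03, -7.24 and -8.01 in the 4 Nedd9-WT tumours. They overlapped in Nedd9-WT replicate 3.

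Krt85, the type II keratin of the hair matrix, gave values by its brightest probe of -1.43, 1.11, 1.07 and 0.31 in the 4 Nedd9-null tumours and -0.67, -0.65, 0.58 and -0.58 in the 4 Nedd9-WT tumours. The order of the arrays was much like that of Krt8, with Nedd9-null replicate 1 lowest, Nedd9-null replicates 2 and 3 highest and Nedd9-WT replicate 3 above the other Nedd9-WT tumours. This probe differed by 0.59 (SE 0.60, adjusted p = 0.588), and by 1.16 (SE 0.38, adjusted p = 0.0779) without replicate 1. The gene's other probes differed by 0.04 and 0.06, so the probes disagree in size. By the file's coordinates the brightest probe (chr15:101307819-101307878, plus strand) lies on the strand opposite to the other 2. It is near the Krt86 probe (chr15:101310355-101310414), which is on the same strand. None of the 3 accessions led to a symbol in the RefSeq table, so the gene that this probe reads is uncertain. Krt86, a further type II hair keratin whose accession is also listed for the Krt81 probe, differed by 0.54 (SE 0.25, adjusted p = 0.237).

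Krt36, a type I keratin of nail and of tongue papillae, stood at -4.73, -2.56, -0.57 and -1.39 in the 4 Nedd9-null tumours and -5.72, -6.29, -2.84 and -6.27 in the 4 Nedd9-WT tumours. Nedd9-WT replicate 3 was well above the rest of its group and inside the Nedd9-null range. The difference was 2.96 (SE 1.08, adjusted p = 0.157), and 3.77 (SE 0.93, adjusted p = 0.0315) without replicate 1, or 13.6-fold higher. A second probe that passed the filter showed Nedd9-WT replicate 3 at -8.12, the lowest of the 8 arrays, and differed by 5.03 with all arrays. The high value of that tumour thus came from 1 of the 2 probes that passed. A further Krt36 probe, above background on 2 Nedd9-null arrays and 1 Nedd9-WT array, did not pass. It differed by 0.25 with all arrays and -0.20 without replicate 1. The Krt36 probes, like those of Krt85, led to no symbol in the RefSeq table.

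Krt42, a mouse keratin of the nail bed, stood at -3.32, 0.83, 1.57 and -0.08 in the 4 Nedd9-null tumours and -2.43, -1.28, -2.30 and -3.30 in the 4 Nedd9-WT tumours. Its pattern over the arrays was that of Krt7, Krt8 and Krt19: Nedd9-null replicates 2 to 4 highest and replicate 1 at the bottom. The difference was 2.07 (SE 1.02, adjusted p = 0.259), and 3.10 (SE 0.55, adjusted p = 0.00913) without replicate 1, or 8.56-fold higher. Krt34, a hair cortex keratin, stood at -5.86, -6.68, -6.38 and -6.65 in the 4 Nedd9-null tumours and -6.76, -6.94, -7.21 and -6.75 in the 4 Nedd9-WT tumours. The groups did not overlap, with the difference at 0.52 (SE 0.23, adjusted p = 0.216), or 0.16 with normexp and 0.14 in the deposited value table. Krt31 (-0.096), Krt35 (0.036) and Krt82 (0.35) lay within 1 standard error of 0 and changed sign under at least 1 alternative.

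Krt222, a keratin-like gene, had a bright probe with values of 5.02, 3.20, 3.16 and 1.42 in the 4 Nedd9-null tumours and 3.18, 2.36, 1.29 and 2.94 in the 4 Nedd9-WT tumours. Nedd9-null replicates 1 and 2 were above all Nedd9-WT tumours and Nedd9-WT replicate 3 was below all Nedd9-null tumours, while the other values overlapped. The difference was 0.76 (SE 0.75, adjusted p = 0.581). This is the probe with the CA repeat. The other Krt222 probe was not well above background on any of the 8 arrays, so its level rests on the repeat-bearing probe alone.

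**Figure D3:**
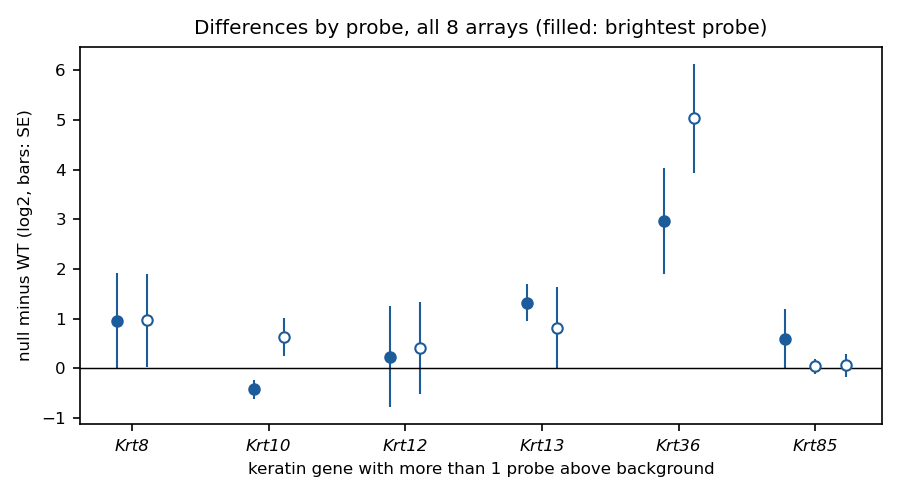
Difference by probe for the 6 keratins with more than 1 probe that passed the filter, in log2 units with standard errors and all 8 arrays, the brightest probe filled. The probes of Krt8 gave 0.96 and 0.97, those of Krt10 gave -0.42 and 0.63, and those of Krt36 gave 2.96 and 5.03.

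Along chromosome 11 the type I genes called without Nedd9-null replicate 1 lay close together. They were found between Krt36 and Krt42, a stretch of 165 kb in mm9 (chr11:99963572-100128311) that holds 9 members, all tested. Of these 9, 6 were called higher (Krt36, Krt13, Krt15, Krt19, Krt17 and Krt42), where 10.4% of all genes were called higher. Krt9, Krt14 and Krt16, between Krt19 and Krt17, differed by -0.085, -0.18 and 0.23. With all arrays, limma called none of the keratins in this stretch. The stretch was delimited after its values were seen, and its ends are the outermost called genes of this chromosome. That limma called 0 of the 10 other tested members there is therefore fixed by these ends. For the same reason the share of calls inside cannot be read against that of all genes. The stretch mixes simple, basal, mucosal and nail keratins. On chromosome 15 the called genes, Krt7, Krt81, Krt79 and Krt8, were spread over the cluster.

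**Figure D4:**
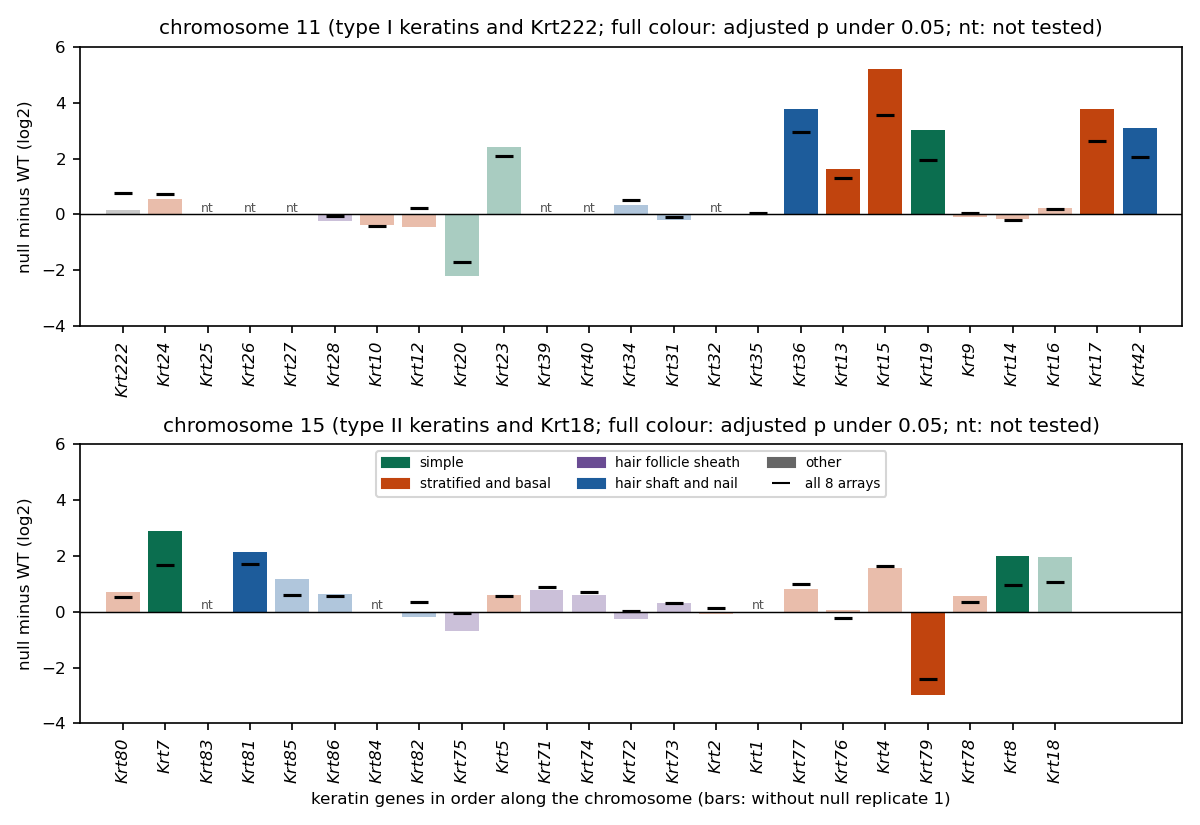
Difference for each keratin in gene order along chromosomes 11 and 15, without Nedd9-null replicate 1 (bars, in full colour where the adjusted p was under 0.05) and with all 8 arrays (black dashes), in log2 units. The bars of Krt36, Krt13, Krt15, Krt19, Krt17 and Krt42 stand at 1.62 to 5.20 at one end of the chromosome 11 cluster.

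Nedd9-null replicate 1 did not take one position across the family. Of the 39 tested keratins, it lay within the Nedd9-WT range in 13, above all Nedd9-WT tumours in 18 and below all of them in 8. The 8 were Krt7, Krt8, Krt18, Krt19, Krt10, Krt17, Krt42 and, by a probe of uncertain gene, Krt85. The same shares over all genes were not counted for this array. It had the most keratins above background together with Nedd9-null replicate 4, at 39 of 48, and the other arrays had 30 to 38. On average over the 6 simple keratins, its level minus the Nedd9-WT mean was -0.997, and the same value was 2.35, 1.65 and 1.02 in Nedd9-null replicates 2 to 4. On average over the 6 sheath keratins replicate 1 was the highest of the Nedd9-null group, at 0.99, with the others at 0.23, 0.27 and -0.24.

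**Figure D5:**
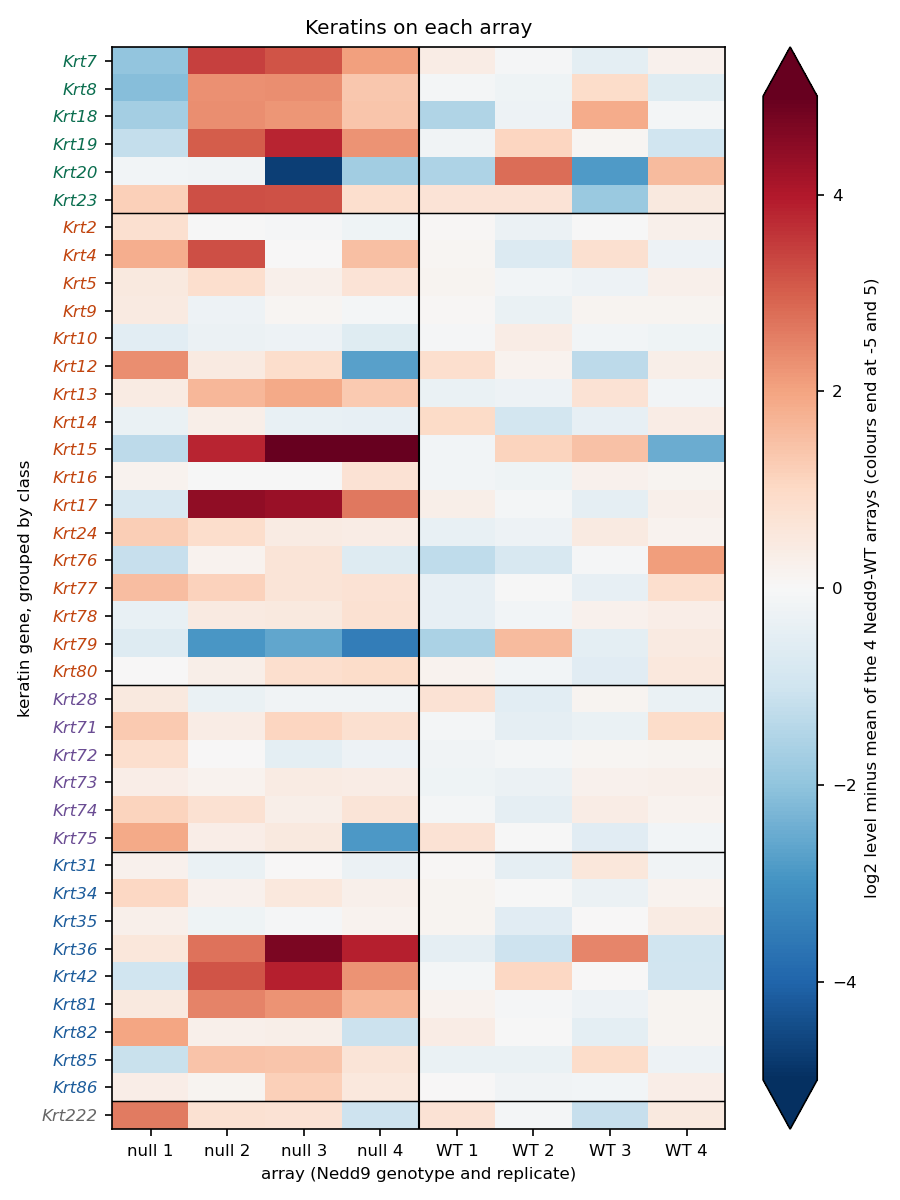
Level of each tested keratin on each array minus the mean of the 4 Nedd9-WT arrays, in log2 units, by class. Nedd9-null replicates 2 to 4 are red for most simple keratins and for Krt15, Krt17, Krt36 and Krt42, and Nedd9-null replicate 1 is blue for Krt7, Krt8, Krt18 and Krt19.

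Genes that work with keratins were counted in 4 lists. Of 12 keratin linkers, which tie keratin filaments to desmosomes, hemidesmosomes and each other, limma called none with all arrays (4 at an unadjusted p under 0.05), 8 were above 0 and the median was 0.56. Without Nedd9-null replicate 1, 5 were called higher and 1 lower, beside 10.4% and 8.11% of all genes. The 3 with the smallest p were Tchp, a keratin-binding protein, at 0.91 (SE 0.25, adjusted p = 0.107), the cornified-envelope linker Evpl at 1.28 (SE 0.37, adjusted p = 0.111), and the hemidesmosome linker Dst at 1.18 (SE 0.43, adjusted p = 0.16).

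The regulators tested, transcription and splicing factors of epithelia, numbered 13 of 15. With all arrays limma called none (7 at an unadjusted p under 0.05), 10 were above 0 and the median was 0.90. Without Nedd9-null replicate 1, 6 were called higher, beside 10.4% of all genes. Elf5, an Ets factor of glandular epithelium, was not well above background in any Nedd9-WT tumour and passed the filter through the Nedd9-null group alone. Its fitted difference ran from 0.95 to 4.01 over the alternatives. On the scale used throughout, its level in the Nedd9-null group was at least 4.21-fold higher (means -5.56 and -9.14, adjusted p = 0.0564). For that bound, the dim group was given, array by array, the dimmest signal still counted as above background, or the probe's own value where higher. The bound concerns the measured means on this scale and carries no error. In log2 units it is 2.08, above the lowest difference over the alternatives. Grhl2, which binds grainyhead sites, stood at -3.25, -3.35, -3.57 and -4.20 in the 4 Nedd9-null tumours and -4.67, -5.21, -5.94 and -5.42 in the 4 Nedd9-WT tumours. Its groups did not overlap, with a difference of 1.72 (SE 0.32, adjusted p = 0.0718), and 1.61 (SE 0.34, adjusted p = 0.0192) without replicate 1. Ehf, a further epithelial Ets factor, differed by 4.21 (SE 1.18, adjusted p = 0.107). Cdx2 was not above background on any array.

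Of 14 tested genes for other intermediate filaments, 0 were called with all arrays by limma (4 at an unadjusted p under 0.05), 9 were above 0 and the median was 0.10. Leaving out Nedd9-null replicate 1 gave 2 calls, both higher: Gfap and Prph, the gene of the filament protein peripherin. In that fit 10.4% of all genes were called higher and 8.11% lower. The smallest p values were those of the neurofilament genes Nefl, at 1.10 (SE 0.34, adjusted p = 0.122), and Nefh, at 1.18 (SE 0.42, adjusted p = 0.153), and of the glial filament gene Gfap, at 1.83 (SE 0.67, adjusted p = 0.16). Vim, the filament of mesenchymal cells and a gene named after its values were seen, was at -0.83 (SE 0.33, adjusted p = 0.18). The cornified envelope list, the crosslinked shell of terminally differentiated keratinocytes, had 9 tested genes of 14, none called by limma with all arrays and 2 at an unadjusted p under 0.05. Of these, 3 were above 0 and 6 below, with a median of -0.26. With Nedd9-null replicate 1 left out, Tgm1, a transglutaminase, was called higher, at 5.51 (SE 0.76, adjusted p = 0.00344), and Cdsn, the adhesion protein corneodesmosin, lower, at -2.72 (SE 0.75, adjusted p = 0.0475). With all arrays Tgm1 differed by 4.29 (SE 1.26, adjusted p = 0.112), Cdsn by -2.19 (SE 0.80, adjusted p = 0.16) and Flg by 0.40 (SE 0.18, adjusted p = 0.227).

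Markers of other cell types differed between the same tumours. All 8 markers of ciliated oviduct cells were above 0, with a median of 4.60. Their mean level was -1.60 in Nedd9-null replicate 1, from 2.34 to 3.03 in the other Nedd9-null tumours, and from -3.83 to -1.52 in the Nedd9-WT tumours. All 8 had an unadjusted p under 0.05 (23.6% of all genes did), limma called none with all arrays, and 8 of 8 were called higher without replicate 1. In that last fit 10.4% of all genes were called higher. Of the 8, Dnah5 passed the filter through the Nedd9-null group alone. Markers of oviduct secretory cells were above 0 in 4 of 5, with mean levels of -0.31 in replicate 1, 2.30 to 2.57 in the other Nedd9-null tumours and -1.99 to -0.02 in the Nedd9-WT tumours. Of these 5, Ovgp1 and Sox17 were called higher without replicate 1. The general markers of simple epithelium were above 0 in 8 of 8, with a median of 1.00. Their mean level was -4.37 in replicate 1, -2.98 to -1.996 in the other Nedd9-null tumours and -4.84 to -3.33 in the Nedd9-WT tumours. Replicate 1 lay within the range of the Nedd9-WT tumours. Without replicate 1, limma called 3 of these markers higher (Cldn7, St14 and Cldn3).

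Granulosa and steroidogenic markers went the other way, below 0 in 7 of 8, with a median of -2.70. Their mean level was -1.59 in Nedd9-null replicate 1, from -6.20 to -3.50 in the other Nedd9-null tumours, and from -1.81 to 0.11 in the Nedd9-WT tumours. Without replicate 1, 4 were called lower (Cyp11a1, Inha, Amh and Fshr), beside 8.11% of all genes. Cyp11a1, Amh and Fshr, and Hsd3b1, which was not called, passed the filter through the Nedd9-WT group alone. Their Nedd9-null values close to background enter the list's median and mean levels. Mesothelial and ovarian surface markers, a list that holds Krt19 itself, were above 0 in 4 of 8, with mean levels of -1.94 to 0.57 in the Nedd9-null group and -1.02 to 0.25 in the Nedd9-WT group. Skin and hair follicle markers could be tested for 5 of 8 genes, 2 of them above 0, with mean levels of -4.26 to -2.76 in the Nedd9-null group and -3.91 to -2.48 in the Nedd9-WT group. Dsg3, a desmosomal cadherin of skin, was not above background on any array. The markers of fibroblasts were above 0 in 2 of 6, those of endothelium in 1 of 6 and those of leukocytes in 4 of 6, with no limma call in these 3 lists with all arrays and, in that order, 0, 3 and 0 genes at an unadjusted p under 0.05. Without replicate 1, 1 fibroblast marker (Pdgfra) and 1 endothelial marker (Eng) were called lower and no leukocyte marker was called (smallest adjusted p = 0.442 by limma). In the same fit the mesothelial list had 1 call, Krt19 itself, and the skin list 1, Cdsn, which is also in the cornified envelope list. The part of each cell type in the keratin differences was not tested.

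The 9 keratins that were not tested were Krt1, Krt25, Krt26, Krt27, Krt32, Krt39, Krt40, Krt83 and Krt84. The probes used for Krt25, Krt26, Krt32 and Krt40, all keratins of the hair follicle, were not well above background on any array. Krt1, Krt27 and Krt39 were above it on 1 Nedd9-null array each, and Krt84 on 1 Nedd9-null and 2 Nedd9-WT arrays. Among the letter-named keratins, the brighter Krt6b probe was above background on all 8 arrays and differed by 0.33 (SE 0.22, adjusted p = 0.398). Krt33b was above it on the 4 Nedd9-null arrays alone, and Krt6a and Krt33a on 1 Nedd9-WT array each.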

How the data were processed

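The submitters' processing notes name Agilent Feature Extraction 9.5.3 as the source of the deposited scanner files, which hold 1-colour intensity values. Background subtraction and spatial detrending of these intensities were done within each array, and probe coordinates are mm9, per the file headers. The deposited value table holds log2 values that share a median of 8.24 in every column; its background step is not given in the sources used here, and it served as an alternative. The deposited flag columns, other than values, mark outlier, saturated and above-background spots.

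Control spots and outlier spots were left out, spots of a probe averaged, and log2 values taken after scaling each array to its 75th percentile. Between 73.0% and 84.6% of probes were well above background, and 4 arrays per genotype limit the precision. A probe was kept when 3 or 4 arrays of either genotype had it well above background (31784), and the brightest represented its gene (25529 genes). Genotypes, taken from the sample titles, were compared over all genes with limma 3.58.1 in R 4.3.3 (lmFit, eBayes, 2-sided, Benjamini-Hochberg, threshold 0.05). The fit was also run on simulated data whose means and spread were taken from these arrays. Members kept the name in the files; other names were updated through RefSeq's GRCm38.p6 table (26108 probes by accession, 3118 by symbol, 910 by synonym, 9229 kept as they were). For 53 of the 62 member probes the accession led to the same symbol. Replicate numbers do not pair the samples.

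Every keratin that passed was named, and others were accounted for; partner lists were counted whole, with the 3 members of smallest p named. Members, classes and lists were chosen with earlier results of these data known.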

Additional observations from a re-analysis of the deposited data

Results flagged for a closer look

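In 80 groups of 4 arrays (40 genes by 2 genotypes), 5 held 1 array whose gap to the nearest of the others, divided by the group's range, was above Dixon's critical value (6.25%, where chance gives about 1 in 20). Krt23 in Nedd9-WT replicate 3 was at -9.04, against -6.70 for the next. Krt36 in the same tumour was at -2.84, against -5.72 for the next, and the gene's second probe did not show it. Krt85 in that tumour was at 0.58, against -0.58 for the next. Krt9 in Nedd9-WT replicate 2 was at -5.17, against -4.76, and Krt14 in Nedd9-null replicate 2 was at -3.26, against -3.85. None of the 5 was in Nedd9-null replicate 1.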

How the results depend on the processing

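Over the alternatives, 623 values of single keratins kept their direction and their side of the threshold, 20 passed the threshold (10 genes, without Nedd9-null replicate 1 and with array weights) and 47 turned sign, all of keratins that were not called. The count of genes called over the array was 17, and became 4 with scaling on the median, 4 with quantile normalization, 7 with probes above background on all 8 arrays, 11 with a trend and robust prior and 5971 with array weights. Leaving out 1 array gave 0 to 4728. Keratins called numbered 0, and 10 with array weights; leaving out 1 array gave 0 to 10, with calls only without Nedd9-null replicate 1. Keratins without overlap numbered 5, and 1 with scaling on the median, 1 with quantile normalization, 2 with normexp and 1 in the deposited value table; leaving out 1 array gave 5 to 15. The median keratin difference of 0.54 became 0.34, 0.31, 0.23 and 0.15 in the same order, and 0.41 to 0.73 leaving out 1 array. Among these alternatives, the share of all genes without overlap was counted only without Nedd9-null replicate 1 (34.1%). For Nedd9, leaving out 1 array gave -4.91 to -4.23, or -4.64 to -4.23 where the adjusted p rose above 0.05. The cause of these changes was not tested.

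Same-numbered arrays did not deviate together (correlations -0.049, -0.232, -0.040 and -0.091, with 0 of 4 numbers matching best). With the replicate block 0 genes and 0 keratins were called, and Nedd9 stood at -4.50 (limma adjusted p = 0.214).

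With scaling on the median, the sign turned in Krt2 -0.080, Krt9 -0.16, Krt35 -0.17 and Krt72 -0.18. With quantile normalization, the sign turned in Krt2 -0.078, Krt9 -0.22, Krt12 -0.050, Krt35 -0.33, Krt72 -0.27 and Krt78 -0.077. With normexp background correction, the sign turned in Krt35 -0.056 and Krt75 0.11. In the deposited value table, it turned in Krt2 -0.0081, Krt9 -0.17, Krt35 -0.11, Krt72 -0.17, Krt75 0.028 and Krt78 -0.0041. With the mean of kept probes, the sign turned in Krt10 0.10. With array weights, the sign turned in Krt2 -0.041, Krt9 -0.029, Krt12 -0.35, Krt35 -0.011, Krt72 -0.19, Krt76 0.15 and Krt82 -0.10. Leaving out 1 array turned the sign in genes that then ranged as follows: Krt2 -0.094 to 0.24, Krt9 -0.085 to 0.15, Krt12 -0.46 to 1.21, Krt35 -0.15 to 0.17, Krt72 -0.25 to 0.20, Krt76 -0.66 to 0.46, Krt82 -0.19 to 0.83, Krt28 -0.23 to 0.20, Krt75 -0.68 to 0.90, Krt14 -0.52 to 0.10 and Krt31 -0.25 to 0.091.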
